A study of Mus musculus with 8 samples.

Results

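The replicative helicase genes Mcm2, Mcm3, Mcm4, Mcm5, Mcm6, Mcm7 and Mcm10 were taken by their symbols from a table of read counts for 24421 mouse genes. All 7 passed the filter on low counts and were tested among 12744 genes. The study expressed PRMT1, a protein arginine methyltransferase, in hematopoietic stem and progenitor cells (HSPCs) that lacked β-catenin and Hoxa9 and were collected from primary transplanted mice. RNA was sequenced in 8 libraries, 2 in each of 4 groups.

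The dKOPRMT group was double-knockout (dKO) cells transduced with wild-type PRMT1. The dKOMut group was dKO cells transduced with an enzymatically dead PRMT1. The dKOEV group was dKO cells with the empty vector, and the WTEV group was wild-type cells with the empty vector. All 4 groups thus shared vector transduction. The cell type label reads dKO HSPCs for every library, WTEV included, and the genotype label of dKOMut replicate 2 names PRMT2, although its title places it in the dKOMut group. No label states the alleles, the age of the mice, the number of mice per library or how the cells were sorted, so p-values measure the spread between libraries, which may be technical.

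Library totals were 15531344 to 22329749 counts. Levels are given as counts per 1000000 counts of the library after TMM scaling (CPM). Prmt1 stood at 981 and 976 CPM in dKOPRMT, 1744 and 1758 CPM in dKOMut, 190 and 194 CPM in dKOEV, and 188 and 192 CPM in WTEV. Both dKOMut libraries thus carried more Prmt1 RNA than the dKOPRMT libraries, and Prmt2 was at 3.45 and 3.96 CPM in dKOMut. Hoxa9 was at 1.87 to 5.79 CPM in the dKO libraries and at 17.2 to 18.2 CPM in WTEV. Ctnnb1, which encodes β-catenin, was at 360.1 to 391 CPM in the dKO libraries and at 444 to 455 CPM in WTEV; the deleted exons are not given in the labels, so this does not check the deletion. Xist had 0 counts in all 6 dKO libraries and 2252 to 3249 counts in WTEV, and the Y-linked Ddx3y had 1021 to 1469 counts in the dKO libraries and 0 in WTEV. Knockout genotype and sex of the source mice therefore cannot be told apart in any comparison with WTEV. The comparisons among the dKO groups do not have this split.

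Mcm2 to Mcm7 encode the subunits of a ring-shaped hexamer that is loaded on DNA at replication origins in G1 phase and, once joined by Cdc45 and the GINS complex, unwinds DNA at the fork. Mcm10 is no subunit of the ring: it binds the assembled helicase and takes part in its activation. Cells normally load far more of these rings than they use, and in mice lower Mcm levels have been tied to replication stress in hematopoietic stem cells.

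Transcription of the Mcm genes is known to be driven by E2F factors as cells enter S phase, so the promoters were read for E2F words. RefSeq promoter windows (assembly GRCm38.p6, 250 bases before to 50 after the start) matched 6 of the 7 genes, all but Mcm4. The words TTTCCCGC, TTTCGCGC, TTTGCCGC and TTTGGCGC were searched on both strands. Mcm3, Mcm5, Mcm6 and Mcm7 held at least 1, against 2.605% of 27025 genes with a window. No match was found in the windows of Mcm2 and Mcm10, nor in the other window of Mcm7. The window of Mcm10 ends in the word TTTGGCGC short of its last base. The next base lies outside the window and was not read, so a match there is not settled. The 4 windows with a match are shown so that the place and strand of each word can be read. Words were found in members that fell in dKOEV against WTEV (Mcm3, Mcm6 and Mcm7) and in Mcm5, which was not called. Of the members without a full match in their window, Mcm10 fell and Mcm2 was not called. Capitals mark the E2F words, and each sequence runs 5′ to 3′ on the strand of the gene.
Mcm3, chr1:20820263-20820562, minus strand: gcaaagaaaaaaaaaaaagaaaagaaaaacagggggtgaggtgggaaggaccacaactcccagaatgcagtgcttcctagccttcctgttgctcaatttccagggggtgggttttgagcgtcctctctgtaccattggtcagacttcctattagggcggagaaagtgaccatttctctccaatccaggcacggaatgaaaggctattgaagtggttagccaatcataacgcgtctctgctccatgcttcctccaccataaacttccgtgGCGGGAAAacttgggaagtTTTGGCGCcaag
Mcm6, chr1:128359656-128359955, minus strand: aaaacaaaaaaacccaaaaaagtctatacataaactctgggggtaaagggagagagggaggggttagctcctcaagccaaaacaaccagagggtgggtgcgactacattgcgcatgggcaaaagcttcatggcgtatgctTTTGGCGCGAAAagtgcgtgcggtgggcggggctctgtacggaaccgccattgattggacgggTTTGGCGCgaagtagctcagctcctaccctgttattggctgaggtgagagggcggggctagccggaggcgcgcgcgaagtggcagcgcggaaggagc
Mcm7, chr5:138171834-138172133, minus strand: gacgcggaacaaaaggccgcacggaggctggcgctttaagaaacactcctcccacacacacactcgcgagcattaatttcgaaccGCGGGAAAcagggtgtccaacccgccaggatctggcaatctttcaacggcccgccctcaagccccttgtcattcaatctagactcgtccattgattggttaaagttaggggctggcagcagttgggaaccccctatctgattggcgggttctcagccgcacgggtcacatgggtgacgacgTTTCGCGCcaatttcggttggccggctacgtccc
Mcm5, chr8:75109259-75109558, plus strand: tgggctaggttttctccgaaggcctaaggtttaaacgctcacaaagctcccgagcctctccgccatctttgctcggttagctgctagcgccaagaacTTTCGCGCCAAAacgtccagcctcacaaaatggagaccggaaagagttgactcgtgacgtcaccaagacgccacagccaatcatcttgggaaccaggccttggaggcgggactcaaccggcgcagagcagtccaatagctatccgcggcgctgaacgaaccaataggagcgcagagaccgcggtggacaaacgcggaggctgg
In Mcm5, and at the first place in Mcm6, 2 words on opposite strands overlap by their GCGC core and make 1 longer run of capitals. Mcm3 held both of its words downstream of the start, at 19 and 38 bases. Mcm6 held its words at 110, 106 and 47 bases upstream. Mcm7 had one at 165 bases upstream and one at 16 bases downstream, and Mcm5 had its overlapping pair at 153 and 149 bases upstream. CCAAT, the core of the NF-Y box, occurred on either strand in all 6 genes with a window, against 41.058% of genes. A match is a description of these letters and no measure of binding.

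Levels of the members were compared per gene length, as CPM per kilobase (RPKM). Mcm7 and Mcm6 stood highest, at 163 ± 9.64 RPKM and 161 ± 7.19 RPKM (SD over the 8 libraries). Mcm3 followed at 146 ± 9.01 RPKM, then Mcm5 at 121 ± 6.24 RPKM, Mcm2 at 89.2 ± 2.60 RPKM and Mcm4 at 69.9 ± 3.02 RPKM. Mcm10 was far below at 19.6 ± 1.73 RPKM, and Mcm7 stood 8.32-fold above it. Mcm7 and Mcm6 did not differ beyond their spread: Mcm6 came first in dKOEV 2 and WTEV 2, and Mcm7 in the other 6 libraries. From Mcm3 downward the order was the same in all 8 libraries. In mean CPM, Mcm2 to Mcm7 lay between the 94.3 and 97.7 percentiles of the genes tested, and Mcm10 at the 75.0 percentile.

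**Figure D1:**
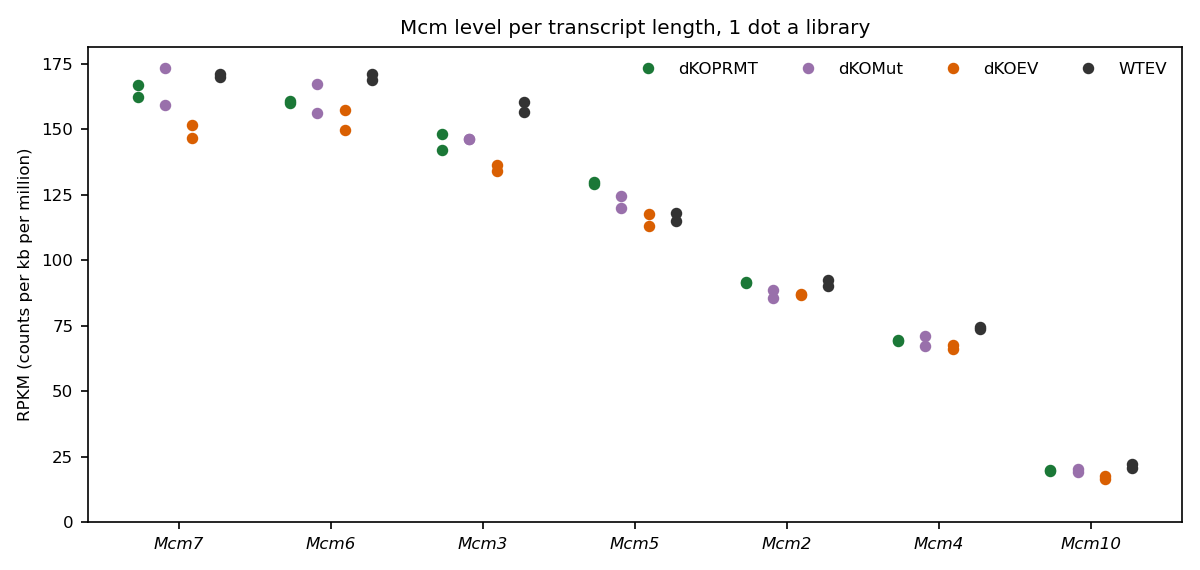
RPKM of each Mcm gene (y axis, CPM per kilobase, from 0) in each library (1 dot), ordered by the mean over 8 libraries; colours mark the groups. Mcm7 and Mcm6 overlap at the top, and Mcm10 stands apart near 19.6 RPKM.

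The summed RPKM of the 6 ring subunits was 759.8 and 761 in dKOPRMT, 738 and 767 in dKOMut, 704 and 711 in dKOEV, and 785 and 776 in WTEV. The dKOEV libraries were the lowest and the WTEV libraries the highest, with both PRMT1 groups between them and no overlap with either. These are small shifts of abundant transcripts. Counts per member and library ran from 1038 to 10179, and the 6 subunits took 0.214% to 0.233% of all counts.

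The comparison of dKOEV with WTEV asked how the double knockout differs from wild type when both carry the empty vector. Of the 7 members, 5 fell and none rose in dKOEV cells: Mcm10, Mcm3, Mcm7, Mcm4 and Mcm6, each by under 20%. Mcm2 and Mcm5 were not called. The median log2 fold change of the members was -0.15, against -0.0005 over all genes tested. Taken without sign, the median size of the log2 fold change over all genes was also 0.15. Of all genes, 7.0% were called lower and 8.44% higher in the same comparison. The share of members that fell was thus above the background in that direction. That background was not matched for level, and most members are among the more abundant genes tested.

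Mcm3, a ring subunit next to Mcm5, had 394 and 387 CPM in dKOEV and 463 and 451 CPM in WTEV. Every dKOEV library lay below every WTEV library. The log2 fold change was -0.23 ± 0.04 (SE; adjusted p = 4.9e-05, edgeR quasi-likelihood test with Benjamini-Hochberg adjustment over all genes), a fall of 14.6%. Mcm7, which with Mcm4 and Mcm6 forms a subcomplex that unwinds DNA in vitro, had 363 and 352 CPM in dKOEV and 410.3 and 407 CPM in WTEV. The groups did not overlap, and the log2 fold change was -0.19 ± 0.04 (edgeR, adjusted p = 0.0011). Mcm6 had 434 and 456 CPM in dKOEV and 489.5 and 496 CPM in WTEV (log2 fold change -0.15 ± 0.04, edgeR, adjusted p = 0.010). Mcm4, whose long N-terminal tail is a target of the kinase Cdc7, had 238 and 243 CPM in dKOEV and 267 and 265 CPM in WTEV. Its log2 fold change was also -0.15 ± 0.05 (edgeR, adjusted p = 0.024), the largest adjusted p of the 5.

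Mcm10, the activation factor, showed the largest fall of the 7, with 66.1 and 70.1 CPM in dKOEV and 81.7 and 88.1 CPM in WTEV. The log2 fold change was -0.32 ± 0.07 (edgeR, adjusted p = 0.0019), or 19.7% less. It is also the least expressed member, so its error is the widest.

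Mcm5, which forms with Mcm2 the gate through which the ring opens on DNA, had 389 and 405 CPM in dKOEV and 406 and 396 CPM in WTEV. The groups overlapped. Its log2 fold change was -0.01, with a 95% interval from -0.09 to 0.07 (edgeR, adjusted p = 0.88), and its sign turned with total-count scaling, at 0.0063. Mcm2, whose N-terminal tail binds histones H3 and H4, had 292 and 294 CPM in dKOEV and 312 and 304 CPM in WTEV. The libraries did not overlap, but the difference of -0.07, with an interval from -0.16 to 0.02, was not called (edgeR, adjusted p = 0.30).

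The count of 5 depended on single libraries. It was 2 (Mcm3 and Mcm7) without WTEV 2, 3 without dKOEV 1 and 4 without WTEV 1, and 5 without any other library. Mcm4 was the member lost with total-count scaling (edgeR, adjusted p = 0.052). Mcm3 and Mcm7 were called under every alternative tried.

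**Figure D2:**
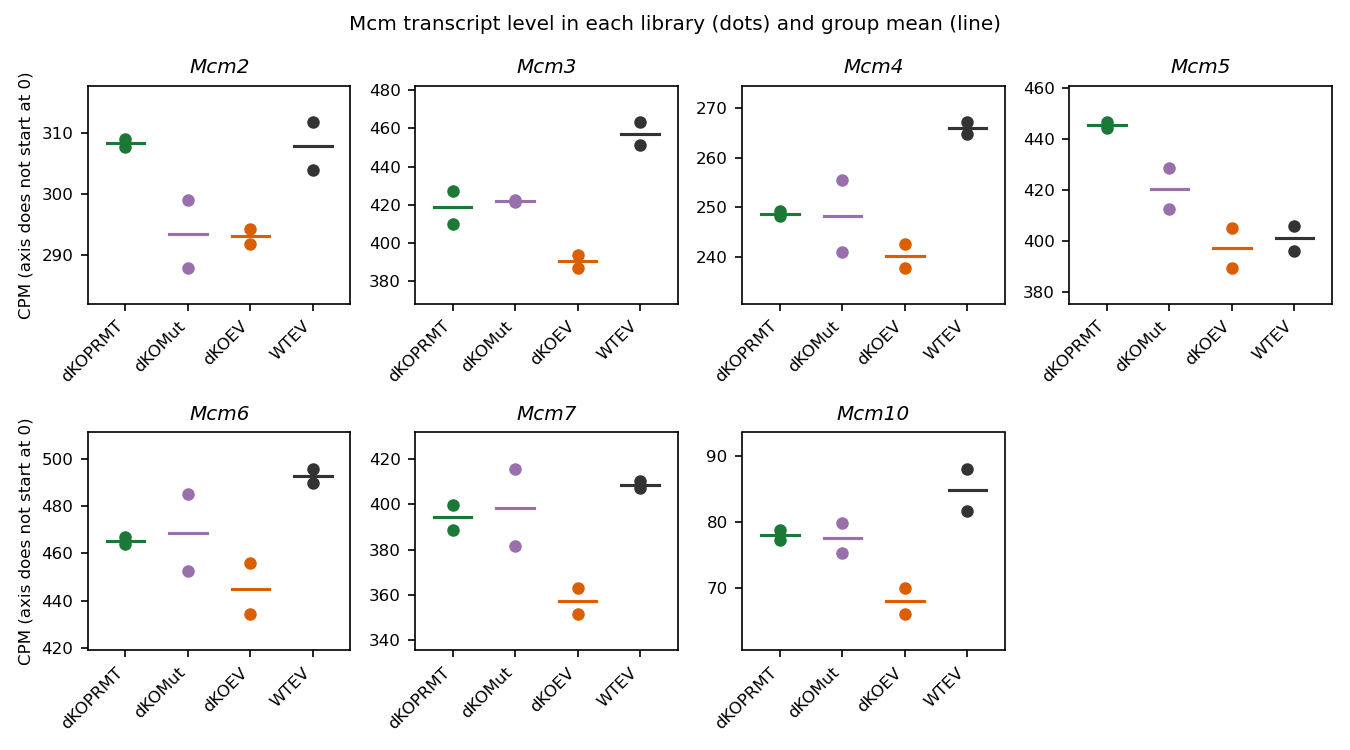
CPM of each Mcm gene (y axis, own range in each panel, not starting at 0) in the 2 libraries of each group (dots) with the group mean (line). The dKOEV libraries lie below the WTEV libraries for all members but Mcm5, for which they overlap. How many of all genes separate in this way was not counted.

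The next comparison, dKOPRMT with dKOEV, asked what wild-type PRMT1 changes in the knockout cells. Mcm5 and Mcm7 rose in dKOPRMT, and no member fell. All 7 had a positive log2 fold change, with a median of 0.10 against 0.0004 over all genes tested. Taken without sign, the median size over all genes was 0.15. Of all genes, 5.96% were called higher and 8.67% lower. The dKOEV libraries enter this comparison and the one with WTEV as well, so the lower dKOEV levels above and the higher dKOPRMT levels here are not separate observations of dKOEV.

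Mcm5 had 447 and 444 CPM in dKOPRMT and 389 and 405 CPM in dKOEV. Both dKOPRMT libraries lay above both dKOEV libraries. The log2 fold change was 0.16 ± 0.04 (edgeR, adjusted p = 0.0031), or 12.1% more. Mcm7 had 399.7 and 389 CPM in dKOPRMT and 363 and 352 CPM in dKOEV, a log2 fold change of 0.14 ± 0.04 (edgeR, adjusted p = 0.019). The Mcm7 call was lost without dKOEV 2 (adjusted p = 0.11), dKOPRMT 1 (0.19) or dKOPRMT 2 (0.064), by the same edgeR test. The Mcm5 call was kept each time.

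Mcm10 had the largest point estimate, 0.20 ± 0.07, with 78.8 and 77.4 CPM in dKOPRMT and 66.1 and 70.1 CPM in dKOEV, but was not called (edgeR, adjusted p = 0.070). Mcm3 had 410.1 and 427 CPM in dKOPRMT and 394 and 387 CPM in dKOEV, and its 0.10 ± 0.04 was not called either (edgeR, adjusted p = 0.086). For both genes, and for every other member including Mcm2, Mcm4 and Mcm6, the groups did not overlap. With 2 libraries a group that is no test, and how many of all genes separate so was not counted. Mcm2, Mcm6 and Mcm4 differed by 0.07, 0.06 and 0.05 on the log2 scale, with adjusted p from 0.29 to 0.54 (edgeR) and intervals that reached from -0.04 to 0.16.

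In dKOMut against dKOEV, the dead enzyme in place of the active one, only Mcm7 rose. It had 382 and 416 CPM in dKOMut and 363 and 352 CPM in dKOEV, a log2 fold change of 0.16 ± 0.04 (edgeR, adjusted p = 0.010). The dKOMut libraries lay apart from each other by more than any other pair of Mcm7 replicates, and both lay above dKOEV. All 7 estimates were positive, with a median of 0.08 against 0.0024 over all genes. Taken without sign, the median size over all genes was 0.14. Of all genes, 4.24% were called higher and 7.08% lower. No member was called without dKOEV 2 or without dKOMut 2, when Mcm7 had an adjusted p of 0.065 or 0.29 by edgeR.

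Mcm3 had 422 CPM in each dKOMut library and 394 and 387 CPM in dKOEV. Its difference of 0.11 ± 0.04 missed the threshold (edgeR, adjusted p = 0.062) and passed it with DESeq2's Wald test (adjusted p = 0.042). Mcm10 had 79.8 and 75.3 CPM in dKOMut and 66.1 and 70.1 CPM in dKOEV, with a log2 fold change of 0.19 ± 0.07 (edgeR, adjusted p = 0.10). Mcm5 had 428 and 412 CPM in dKOMut and 389 and 405 CPM in dKOEV, and its 0.08 was not called (edgeR, adjusted p = 0.21). Mcm6, Mcm4 and Mcm2 differed by 0.07, 0.05 and 0.0019 on the log2 scale, and for each of them the groups overlapped. The sign for Mcm2 turned with total-count scaling, at -0.0076.

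The direct test of active against dead PRMT1, dKOPRMT against dKOMut, called no member. The estimates ran from -0.02 to 0.08 on the log2 scale, 4 above 0 and 3 below. Every edgeR alternative, DESeq2 and limma voom also called 0, and 1 member was under an unadjusted p of 0.05 in edgeR. That member was Mcm5, with 447 and 444 CPM in dKOPRMT and 428 and 412 CPM in dKOMut, a difference of 0.08 with an interval from 0.0026 to 0.16 (edgeR, adjusted p = 0.35). For Mcm3 the interval ran from -0.09 to 0.07, for Mcm7 from -0.10 to 0.07, and for Mcm10, the least precise, from -0.14 to 0.16. Differences of these sizes were thus not resolved with 2 libraries a group. Over all genes, 1.43% were called higher and 1.68% lower. Calls in dKOPRMT and not in dKOMut against dKOEV, such as Mcm5, are therefore not shown to depend on the active enzyme.

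**Figure D3:**
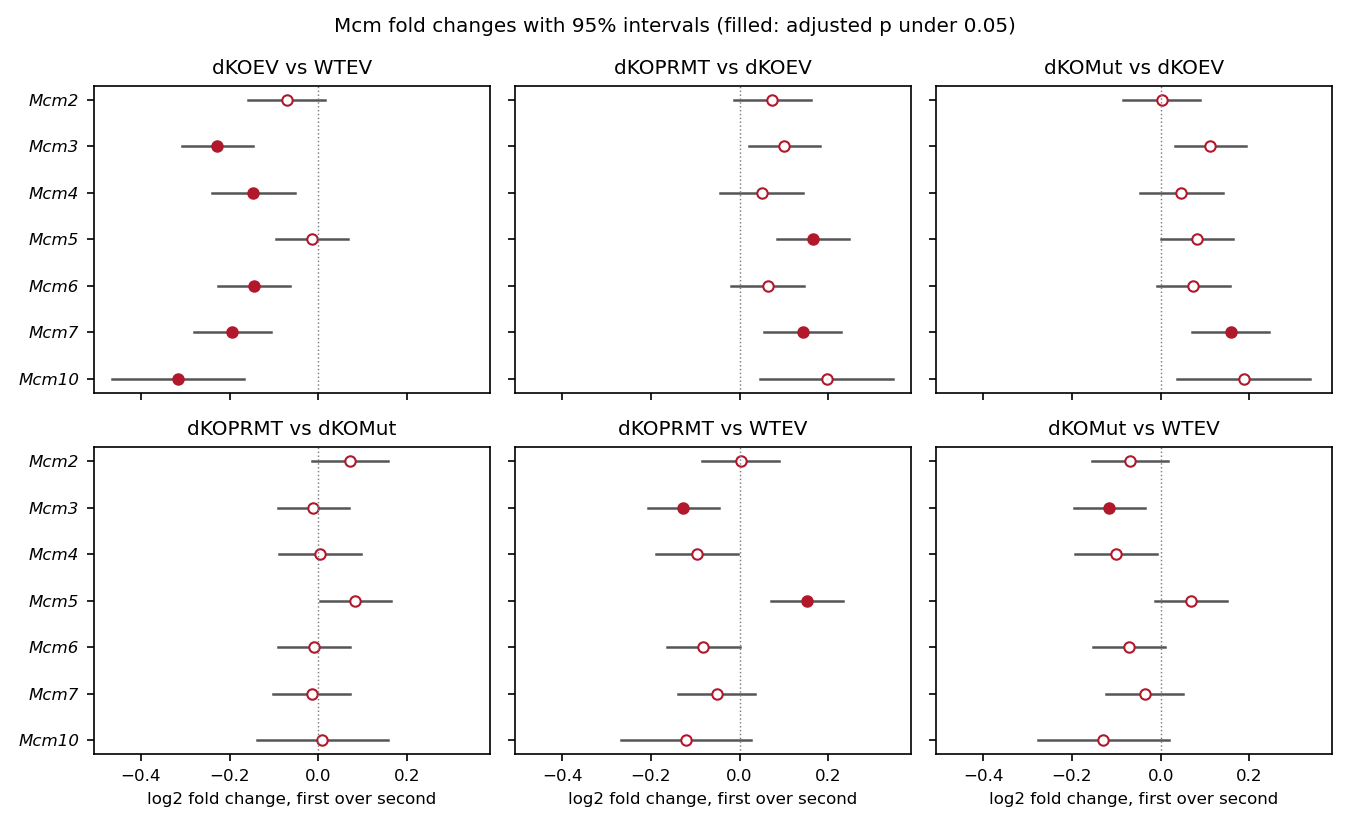
Log2 fold change of each Mcm gene (x axis, first-named group over the second) in the 6 comparisons, with 95% intervals from edgeR (lines); filled dots passed an adjusted p of 0.05. The dKOEV against WTEV panel has 5 filled dots left of 0, and the dKOPRMT against dKOMut panel has none.

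Set against wild type, 5 of the 7 members (Mcm3, Mcm4, Mcm6, Mcm7 and Mcm10) had mean levels in dKOPRMT and dKOMut between those of dKOEV and WTEV. In dKOPRMT against WTEV, Mcm5 rose and Mcm3 fell. Mcm5 had 447 and 444 CPM in dKOPRMT and 406 and 396 CPM in WTEV, and its log2 fold change was 0.15 ± 0.04 (edgeR, adjusted p = 0.0040). Mcm3 had 410.1 and 427 CPM in dKOPRMT and 463 and 451 CPM in WTEV, and its log2 fold change was -0.13 ± 0.04 (edgeR, adjusted p = 0.015). For each gene the groups did not overlap. Of all genes, 11.0% were called higher and 12.2% lower, so 1 call each way among 7 members is near that background. Without WTEV 1 only Mcm5 stayed called, without WTEV 2 only Mcm3, and without dKOPRMT 1 neither.

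In dKOMut against WTEV, Mcm3 fell, with 422 CPM in each dKOMut library and 463 and 451 CPM in WTEV (log2 fold change -0.12 ± 0.04, edgeR, adjusted p = 0.033). No other member was called. Of all genes, 9.41% were called higher and 9.96% lower. The Mcm3 call was lost without WTEV 1, WTEV 2, dKOMut 1, dKOMut 2 or dKOPRMT 2. As percentages of the WTEV mean CPM, Mcm3 stood at 91.6% in dKOPRMT, 92.3% in dKOMut and 85.4% in dKOEV. Mcm10 stood at 92.0% in dKOPRMT, 91.3% in dKOMut and 80.2% in dKOEV. Mcm7 stood at 96.5% in dKOPRMT, 97.5% in dKOMut and 87.4% in dKOEV. Mcm6 stood at 94.5% in dKOPRMT, 95.2% in dKOMut and 90.4% in dKOEV. Mcm4 stood at 93.5% in dKOPRMT, 93.3% in dKOMut and 90.3% in dKOEV. The other 2 did not stay below the wild-type mean in both PRMT1 groups. Mcm2 was at 100.2% in dKOPRMT, 95.3% in dKOMut and 95.2% in dKOEV, and Mcm5 at 111% in dKOPRMT, 105% in dKOMut and 99.0% in dKOEV.

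The proportions of the 6 ring subunits, which assemble in equal numbers, were then compared within each library, where library scaling cancels. Mcm5 made up 17.0% of their summed RPKM in dKOPRMT, 16.2% in dKOMut, 16.3% in dKOEV and 14.9% in WTEV (means of 2 libraries). The ratio of Mcm5 to Mcm3 counts was 1.09 and 1.04 in dKOPRMT, 1.02 and 0.976 in dKOMut, 0.989 and 1.05 in dKOEV, and 0.876 and 0.878 in WTEV. The WTEV replicates nearly coincide, and every dKO library lies above them, with or without PRMT1. Mcm3 went the other way: its mean share was 19.1% in dKOPRMT, 19.4% in dKOMut, 19.1% in dKOEV and 20.3% in WTEV. As a log2 ratio to the other 5 subunits, Mcm4 was also lower in every dKO library than in WTEV. The margin was small, with -0.899 in dKOEV 2 and -0.894 in WTEV 1. By share of summed RPKM it did not hold: Mcm4 was at 9.511% in dKOEV 2, against 9.477% in WTEV 1 and 9.501% in WTEV 2. Of the 15 pairs of subunits, 8 had count ratios in the 6 dKO libraries that did not overlap with the 2 WTEV libraries, including all 5 pairs with Mcm5. These ratios were chosen after the values were seen and were not tested. How often the ratios of other gene pairs separate dKO from WTEV libraries was not counted. They describe these libraries only, and the 15 pairs reuse the same 6 genes. Which subunit changed cannot be read from them.

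**Figure D4:**
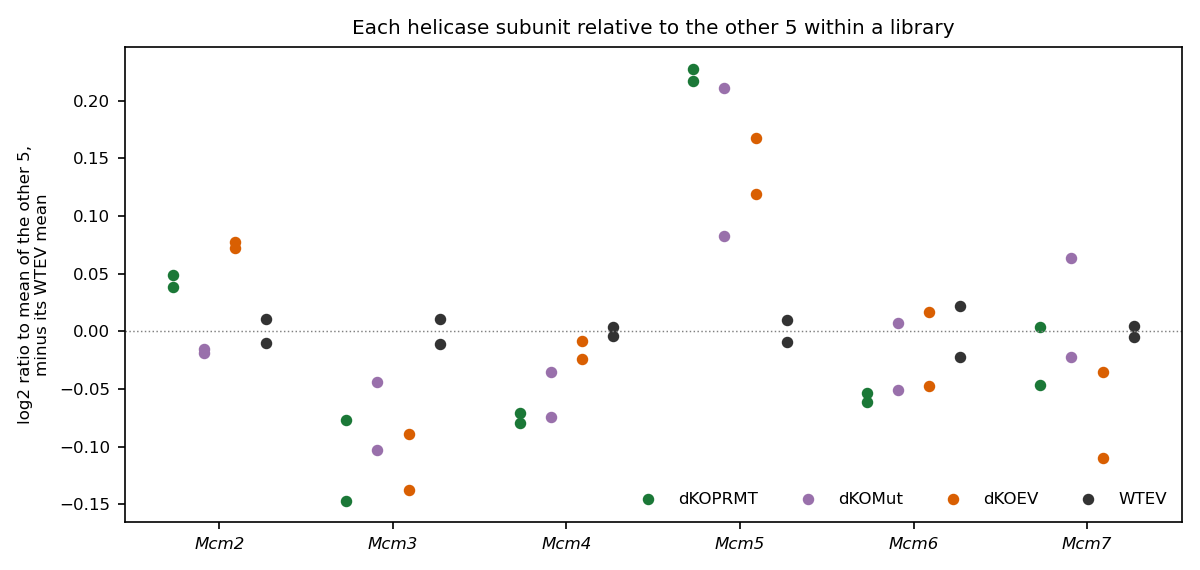
Log2 ratio of each ring subunit to the mean of the other 5 in the same library, minus the WTEV mean of that ratio (y axis), 1 dot a library. All 6 dKO libraries lie above the WTEV libraries for Mcm5 and below them for Mcm3 and, by a small margin, Mcm4.

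Across the 8 libraries, the log2 CPM of each member was set against the centred mean of the other ring subunits, as a description. For Mcm10 that was the mean of Mcm2 to Mcm7. Pearson's r was 0.747 for Mcm2, 0.803 for Mcm3, 0.837 for Mcm4, 0.845 for Mcm6, 0.871 for Mcm7 and 0.841 for Mcm10, but 0.0676 for Mcm5. The points are group means as much as replicates, and they share library scaling. Outside the family, the genes most like the mean of Mcm2 to Mcm7 among 9938 genes that averaged at least 5 CPM were Rpn2 (r = 0.977), Ahcy (0.963), Ppia (0.961), Fundc2 (0.961), Tomm6 (0.959), Bysl (0.954), Krtcap2 (0.953) and Stmn1 (0.948). This ranking comes from a search over many candidates with 8 points in 4 groups and carries no test.

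None of the 3 related genes that were tested was called in any of the 6 comparisons (edgeR), and 0 were under an unadjusted p of 0.05. Without dKOPRMT 2, 1 of them was called higher in dKOPRMT against WTEV. Mcm8 and Mcm9, which form a separate helicase used in homologous recombination, had 15.8 to 21.6 CPM and 15.1 to 19.3 CPM over all libraries. Mcmbp, which encodes a binding partner of newly made Mcm subunits, had 164 to 189.9 CPM. Mcmdc2, a gene needed in meiosis, had 0 to 4 counts and was not tested.

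Some members share their locus with other genes, and no source used here states whether the counting used strand. Mcm4 (GRCm38 chromosome 16, 15623897 to 15637400, minus strand) starts 466 bases from Prkdc on the other strand, the catalytic subunit of DNA-dependent protein kinase. Prkdc was not called in any comparison. By the deposited coordinates, Mcm7 (chromosome 5, 138164589 to 138171862, minus strand) starts 159 bases from Ap4m1, a subunit of an adaptor complex, on the other strand. In the reference gene annotation Mcm7 reaches 138172422, past the Ap4m1 start at 138172021. There an exon of its main transcript overlaps Ap4m1. Ap4m1 had 19.7 and 18.8 CPM in dKOPRMT and 12.4 and 13.2 CPM in WTEV and was called higher there (log2 fold change 0.58 ± 0.15, edgeR, adjusted p = 0.0030). In that comparison Mcm7 was not called, at -0.05. In dKOEV against WTEV, where Mcm7 fell, Ap4m1 had a log2 fold change of 0.40 and was not called (edgeR, adjusted p = 0.070). The hairpins of Mir25, Mir93 and Mir106b lie inside Mcm7, outside the exons of its main transcript. Mir25 and Mir93 overlap an exon of another Mcm7 transcript. These hairpins had 0 to 16 counts, against 5704 to 8377 counts for Mcm7.

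The partners of the helicase were read from lists of genes named by role, against the background of all genes: 7.0% lower and 8.44% higher in dKOEV against WTEV, and 5.96% higher and 8.67% lower in dKOPRMT against dKOEV. Of 10 genes tied to origin licensing, the step that loads the ring, 1 fell in dKOEV against WTEV and 1 rose in dKOPRMT against dKOEV. In both cases it was Orc5, a subunit of the origin recognition complex. Such a count, 1 of 10, is near that background. Orc5 averaged 25.5 CPM in dKOPRMT, 19.3 CPM in dKOEV and 28.7 CPM in WTEV (log2 fold change -0.57 ± 0.13, edgeR, adjusted p = 0.0010, for dKOEV against WTEV). A further licensing gene fell without dKOEV 1 or dKOEV 2, and the rise of Orc5 was lost without dKOPRMT 1. The list's median log2 fold change was -0.15 in dKOEV against WTEV and 0.13 in dKOPRMT against dKOEV, close to the -0.15 and 0.10 of the Mcm genes. Of 13 helicase activation genes, only Gins1, a GINS subunit, fell in dKOEV (-0.48 ± 0.12, edgeR, adjusted p = 0.0053). That 1 of 13 is again near the background, and the count was 0 without WTEV 2 or dKOEV 2, and 2 without dKOEV 1. In dKOPRMT against dKOEV, 2 of the 13 rose: Topbp1 by 0.27 and Cdc45, the partner that completes the active helicase, by 0.31 on the log2 scale. This count was 1 without dKOPRMT 1 and 3 without dKOEV 1. In dKOPRMT against WTEV, where 11.0% of genes were called higher, 4 of the 13 rose: Topbp1 (0.26), Cdc45 (0.23), Cdc7 (0.40), a kinase that fires origins, and Wdhd1 (0.23). That count was 1 without WTEV 2 or dKOPRMT 1 and 2 without WTEV 1 or dKOPRMT 2. Cdc45 also rose in dKOMut against dKOEV, by 0.24 (edgeR, adjusted p = 0.032), a call lost without dKOEV 1 or either dKOMut library. Topbp1 rose in dKOPRMT against dKOMut by 0.18 (edgeR, adjusted p = 0.023), a comparison in which no ring gene was called; this call was lost without any 1 of the 4 compared libraries.

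Of 8 helicase unloading genes, Traip, a ubiquitin ligase of the fork, rose in dKOPRMT against dKOEV (0.36 ± 0.12, edgeR, adjusted p = 0.032), a call lost without dKOPRMT 1 or either dKOEV library. In dKOEV against WTEV 0 of the 8 were called, and 0 were under an unadjusted p of 0.05 (edgeR). Of 7 fork partners 0 were called in either comparison (edgeR), with 2 under an unadjusted p of 0.05 in dKOPRMT against dKOEV and 1 in dKOEV against WTEV. Here 1 was called lower in dKOEV against WTEV without dKOEV 1, dKOEV 2 or dKOMut 1, and 1 higher in dKOPRMT against dKOEV without dKOEV 1. Of 20 S phase genes, 6 fell and none rose in dKOEV against WTEV, among them Rrm1 (-0.20), Rrm2 (-0.17), Pcna (-0.16) and Pola1 (-0.25). These encode the subunits of ribonucleotide reductase, the sliding clamp and a subunit of the primase polymerase. That count was 1 without WTEV 2 and 8 without dKOMut 1, and 5 or 6 without any other library. In dKOPRMT against dKOEV 5 of the 20 rose, among them Rrm2 (0.22), Chaf1a (0.21), Rrm1 (0.14) and Uhrf1 (0.14). That count was 1 without dKOPRMT 2 and 3 without dKOPRMT 1 or dKOEV 1.

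Of 22 G2 and mitosis genes, 3 fell in dKOEV against WTEV (Top2a, Cenpf and Mki67), a count that was 0 without WTEV 1, 1 without dKOEV 2 or dKOMut 2, and 2 without WTEV 2, dKOMut 1 or dKOPRMT 2. In dKOPRMT against dKOEV 10 of them rose and none fell, led by Mki67 (0.37 ± 0.05, edgeR, adjusted p = 3.4e-07), Kif11 (0.23), Cenpf (0.33) and Bub1 (0.23). That count was 3 without dKOPRMT 1 and 4 without dKOPRMT 2 or dKOEV 2. Of 18 E2F, pocket protein and DREAM genes, E2f2 rose and E2f8 fell in dKOEV against WTEV, and E2f8, E2f2, Tfdp1 and Mybl2 rose in dKOPRMT against dKOEV. The fall of E2f8 was lost without either WTEV library, dKOEV 1 or either dKOPRMT library. The count of 4 was 3 without dKOPRMT 1 and 2 without dKOPRMT 2.

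With the mutant enzyme, 4.24% of all genes were called higher in dKOMut against dKOEV. Of the E2F list, E2f8 (0.25) and E2f2 (0.20) rose, a count of 2 that was 3 without dKOEV 1 and 1 without dKOEV 2 or dKOMut 2. Mki67 (0.31), Cenpf (0.31) and Birc5 (0.29) rose among the G2 and mitosis genes, a count of 3 that was 2 without dKOMut 1. Of the S phase genes 0 were called (edgeR), with 5 under an unadjusted p of 0.05 and 1 called higher without dKOEV 1 or dKOEV 2. In dKOPRMT against dKOMut, where 1.43% of all genes were called higher, 3 of the 22 G2 and mitosis genes rose: Aurka (0.25), Hmmr (0.25) and Kif11 (0.19). That count was 0 without any 1 of the 4 compared libraries. In that comparison 0 of the S phase and 0 of the E2F genes were called (edgeR), with 1 and 3 under an unadjusted p of 0.05. A lower share of cycling cells and less RNA per cell cannot be told apart in these bulk libraries.

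**Figure D5:**
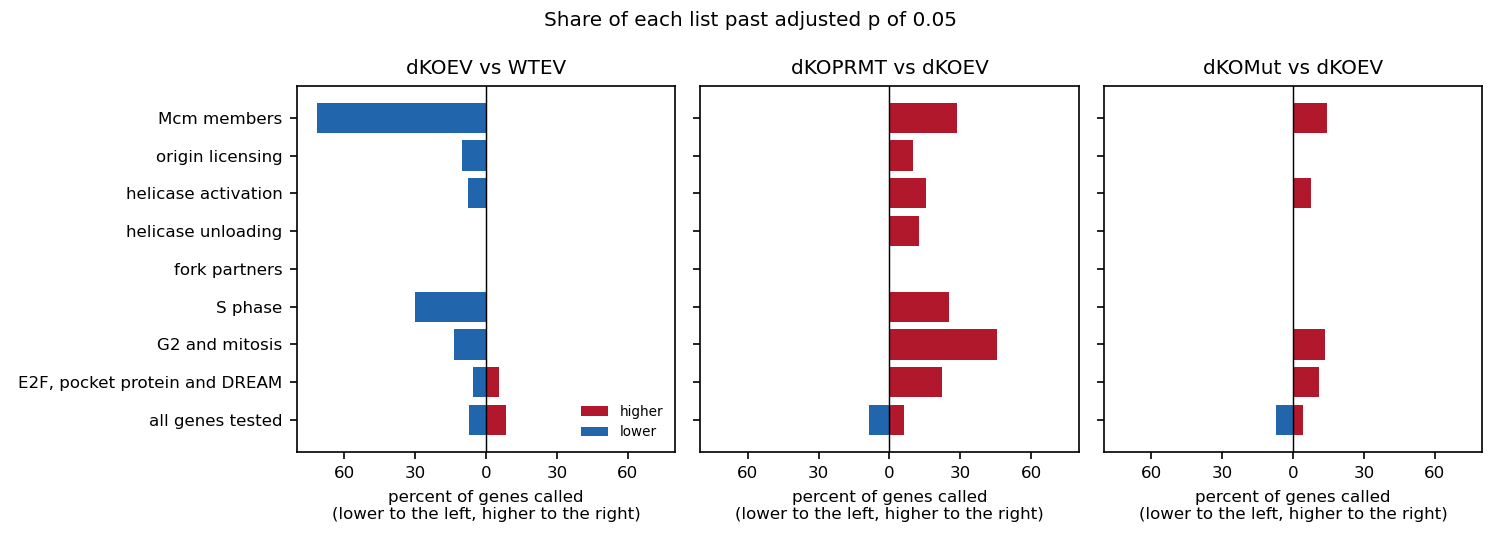
Percent of each gene list called at an adjusted p under 0.05 (x axis; lower to the left, higher to the right) in 3 comparisons, with all genes tested at the bottom. The Mcm bar reaches left in dKOEV against WTEV, for 5 of 7 genes, and right in dKOPRMT against dKOEV, for 2 of 7.

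Cell type markers moved far more than the Mcm genes in the same comparisons, and their part in the Mcm results was not tested. Levels that bear on the HSPC label were read first, with no criterion set. Kit had 137 to 171 CPM, Cd34 105 to 162 CPM and Ly6a 154 to 262 CPM over all libraries, beside 5784 to 9081 CPM of the granule enzyme Mpo. Kit was highest in dKOPRMT (170 to 171 CPM), where Cd34 was lowest (105 to 108 CPM). Other stem and progenitor genes were lower, such as Flt3 and Mecom, with means of 33.3 and 1.56 CPM in WTEV. The summed level of 16 granule and neutrophil genes was 32514 to 32868 CPM in dKOPRMT, 32909 to 33571 CPM in dKOMut, 25407 to 26470.0 CPM in dKOEV and 18224 to 18230 CPM in WTEV. Of these genes 14 rose and 1 fell in dKOEV against WTEV, and 9 rose and 4 fell in dKOPRMT against dKOEV. Fewer than 14 rose in dKOEV whichever library was left out. Over all genes, 8.44% rose and 7.0% fell in dKOEV against WTEV, and 5.96% rose and 8.67% fell in dKOPRMT against dKOEV. The 13 stem and progenitor genes summed to 998 to 1016 CPM in dKOPRMT, 1066 to 1096 CPM in dKOMut, 1115 to 1156 CPM in dKOEV and 1287 to 1309 CPM in WTEV. Of them 3 rose and 5 fell in dKOEV against WTEV, and 2 rose and 7 fell in dKOPRMT against dKOEV. The 3 were 1 without WTEV 1, WTEV 2 or dKOEV 1, and the 2 were 1 without dKOEV 2 or either dKOPRMT library. The 12 monocyte and macrophage genes summed to 3647 to 3696 CPM in dKOPRMT, 3496 to 3608 CPM in dKOMut, 4707 to 4741 CPM in dKOEV and 5998 to 6049 CPM in WTEV, with 7 lower and 0 higher in dKOEV against WTEV, and 9 lower and 1 higher in dKOPRMT against dKOEV (2 higher without dKOEV 1). The 10 mast cell, basophil and eosinophil genes summed to 663 to 678 CPM in dKOPRMT, 953 to 991 CPM in dKOMut, 907 to 937 CPM in dKOEV and 1458 to 1489 CPM in WTEV. Erythroid genes summed to 346 to 359.6 CPM in dKOPRMT and 298 to 303 CPM in dKOMut. They summed to 299 to 309 CPM in dKOEV and 404 to 413 CPM in WTEV. Hba-a1, Hbb-bs and Hbb-bt were at 0 in all groups. Most of the erythroid sum was Tfrc, with means of 336 CPM in dKOPRMT, 276 in dKOMut, 271 in dKOEV and 346 in WTEV. Of the 6 erythroid genes tested, Tfrc rose and 3 fell in dKOPRMT against dKOEV. The median log2 fold change of the 6 was -1.06. Those 3 were Gata1 (-0.95), Klf1 (-1.17) and Car1 (-1.18), and fewer fell when some single libraries were left out. In dKOEV against WTEV 0 rose and 4 fell. Megakaryocyte genes summed to 194 to 199 CPM in dKOPRMT, 226 to 227 CPM in dKOMut, 349 to 364 CPM in dKOEV and 298 to 314 CPM in WTEV. T and NK genes had a sum of 76.8 to 115 CPM and Cd3e at 0 in all groups. Nearly all of that sum was Nkg7, with means of 113 CPM in dKOPRMT, 90.2 in dKOMut, 77.8 in dKOEV and 95.5 in WTEV. Only 2 of the 9 T and NK genes passed the filter on low counts. B cell genes had a sum of 8.73 to 13.3 CPM. Unlike the granule genes, whose sum was higher in dKOEV than in WTEV and higher again in both PRMT1 groups, the Mcm sum was lowest in dKOEV.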

How the data were processed

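RNA was measured in 8 mouse libraries, 2 in each of 4 groups taken from the sample titles. Per the labels, total RNA came from an RNeasy Plus Micro kit and went into directional libraries (NEB Ultra II). The submitters' processing notes name Trim Galore 0.6.6, STAR 2.7.6a, featureCounts (no version) and GRCm38 (mm10). No source used here states the strand setting or the annotation. The authors deposited raw counts per gene, not normalized, with 1 gene length each.

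Counts of all 24421 genes were fitted in 1 model over the 8 libraries with edgeR 4.0.16 in R 4.3.3 (filterByExpr, TMM scaling, robust quasi-likelihood F test, no covariate). The 12744 genes kept were adjusted together by Benjamini-Hochberg at 0.05; called means past that threshold. The common biological coefficient of variation was 0.0637. CPM and RPKM use TMM-scaled library sizes and the deposited length. Replicate counts differed beyond sampling noise (chi-square per degree of freedom 3.63 to 6.39), so none was merged. The script was tested on simulated data. Members, lists, promoter words and the rule for named genes were chosen with earlier results of these data known. That rule takes all 7 members, the label checks, relatives, neighbours, the 8 genes most like the family mean and up to 4 called genes a list with the smallest p. Alternatives were other scalings and filters, DESeq2 1.42.0, limma 3.58.1 voom, the compared groups alone, a replicate block and each library left out. The list counts with each library left out were chosen after seeing the data. Protein sequences were not used here.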

Additional observations from a re-analysis of the deposited data

How the results depend on the processing

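With 2 libraries a group, the calls rest on a spread shared over all genes, with 4 residual degrees of freedom and a median prior of 30.4. A library left alone in its group is assumed to vary like the other groups. Of 672 values of single members under the alternatives, 629 kept direction and side of the threshold, 21 lost and 1 gained their call, and 21 changed sign, each with a main estimate under 0.04 in size.

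Leaving out 1 library at a time, the members called ranged from 2 to 5 in dKOEV against WTEV, 1 to 2 in dKOPRMT against dKOEV, 0 to 1 in dKOMut against dKOEV, 0 to 2 in dKOPRMT against WTEV and 0 to 1 in dKOMut against WTEV. DESeq2's Wald test called 2 members in dKOMut against dKOEV, against 1 by edgeR. Genes called ranged from 1149 to 1996 (1967 with all libraries) in dKOEV against WTEV, 1058 to 1945 (1864) in dKOPRMT against dKOEV, 171 to 550 (396) in dKOPRMT against dKOMut and 1954 to 3394 (2955) in dKOPRMT against WTEV.

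The cause of the sign changes was not tested. With total-count scaling Mcm5 was at 0.0063 in dKOEV against WTEV and Mcm2 at -0.0076 in dKOMut against dKOEV. Among genes that averaged at least 5 CPM, Mcm2 was at -0.0049 in dKOMut against dKOEV and -0.00017 in dKOPRMT against WTEV. Leaving out 1 library, Mcm5 ranged from -0.0488 to 0.0092 in dKOEV against WTEV. Mcm2 ranged from -0.0227 to 0.0335 in dKOMut against dKOEV and from -0.0170 to 0.0224 in dKOPRMT against WTEV. In dKOPRMT against dKOMut, Mcm3 ranged from -0.0437 to 0.0158, Mcm4 from -0.0408 to 0.0429, Mcm6 from -0.0615 to 0.0380, Mcm7 from -0.0787 to 0.0447 and Mcm10 from -0.0349 to 0.0509. Mcm7 ranged from -0.0959 to 0.0238 in dKOMut against WTEV.

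Replicate numbers did not pair libraries: same-numbered deviations correlated at -0.041 to 0.020. With the replicate block 1952 genes were called in dKOEV against WTEV, 1853 in dKOPRMT against dKOEV, 1414 in dKOMut against dKOEV, 403 in dKOPRMT against dKOMut, 2953 in dKOPRMT against WTEV and 2462 in dKOMut against WTEV, and the counts of members called were 5, 2, 1, 0, 2 and 1, as without it.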
